A study of Homo sapiens with 16 samples.

Results

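The expression of 9 genes of the nuclear envelope was followed in DU145, an established line of human prostate cancer cells. They were the SUN-domain genes SPAG4, SUN1 and SUN2, the nesprin genes SYNE1, SYNE2 and SYNE3, the lamin genes LMNA and LMNB1, and the emerin gene EMD. These 9 genes were taken by symbol from 64792 gene identifiers in the count table, and all 9 were among the 14690 genes with enough counts to be tested. SPAG4 and SYNE1 were selected for their difference between lactate and control libraries, so that difference is given for them as a description without a test. The other 7 were added as their partners.

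Messenger RNA was sequenced in 16 libraries in 4 groups of 4: cells given lactate together with I-BET762, lactate alone, I-BET762 alone, or neither (control). I-BET762 is a BET inhibitor, a compound that occupies the bromodomains through which BET proteins recognise acetylated histones. The labels describe independent replicates, give no dose and no duration, and name a line other than DU145 in 1 field of the libraries given both treatments, whose titles were followed. All groups are bulk cultures of 1 cell line, in which fewer cells of a type and less RNA per cell cannot be told apart.

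The nuclear envelope is crossed by LINC complexes, short for linkers of nucleoskeleton and cytoskeleton. SUN-domain proteins sit in the inner nuclear membrane, where they contact the lamina, a meshwork of lamin filaments. In the space between the membranes they bind the KASH domain at the end of nesprins, which sit in the outer membrane and reach actin, microtubule motors or intermediate filaments. SPAG4, also called SUN4, is best known from the developing sperm head, and it has been described as a hypoxia-responsive gene in human cancers. SYNE1 encodes nesprin-1, a giant spectrin-repeat protein made in many isoforms.

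Total counts were 14358751 to 14641934 with both treatments, 10711859 to 17173584 with lactate, 13741178 to 16847884 with I-BET762 and 13300345 to 15867437 in control. Lactate replicates 1 and 4 stood apart from replicates 2 and 3 in how expression followed exon length across genes. Expression was taken here relative to each gene's mean over the 16 libraries. Its Spearman's rho with exon length was -0.40 and -0.42 in replicates 1 and 4, against 0.24 and 0.10 in replicates 2 and 3. HEXIM1, whose expression BET inhibitors are known to raise, went against the labels of 2 libraries. It stood at 89.6 CPM, a read count scaled to a common library size, in the library labelled I-BET762 replicate 2, against 113.3 to 148.8 CPM in the rest of its group. The library labelled control replicate 2 had 135.1 CPM, against 70.0 to 77.4 CPM in the other control libraries. The labels were kept, and for calls and near calls of the 9 genes that involve I-BET762 or control libraries the value without this doubted pair is given as well. The 5 epithelial markers were all expressed, with summed levels of 2299 to 3094 CPM with both treatments, 2098 to 3350 CPM with lactate, 2301 to 2494 CPM with I-BET762 and 1900 to 2458 CPM in control. The luminal prostate marker KLK3 had at most 1 count in a library. Of the 6 fibroblast markers 1 was tested and DCN had 0 counts in every library, and of the 4 leukocyte markers 2 were tested and CD3E had 0 counts in every library. The summed fibroblast markers stood at 5.16 to 10.2 CPM with both treatments, 5.19 to 8.86 CPM with lactate, 4.66 to 7.84 CPM with I-BET762 and 3.94 to 4.82 CPM in control, and the summed leukocyte markers at 1.57 to 2.49 CPM with both treatments, 2.6 to 3.15 CPM with lactate, 0.89 to 2.49 CPM with I-BET762 and 0.85 to 2.2 CPM in control. Their part in the results was not tested.

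The genes that opened this set, SPAG4 and SYNE1, differ widely in size. SPAG4 (ENSG00000061656) lies on chromosome 20 at 35615892 to 35621049 on the plus strand of GRCh38, and its annotated exons cover 2240 bp. SYNE1 (ENSG00000131018) spans chromosome 6 from 152121684 to 152637801 on the minus strand, with exons covering 46064 bp. A read count for SYNE1 sums all its isoforms. The 250 bases before its first and last start sites in the RefSeq promoter table (GRCh38.p14, minus strand, 5′ to 3′) are shown because the isoforms pooled in the counts begin there. The window at chr6:152637363-152637612 precedes the start of the transcripts of 27748 and 26584 bp, and the window at chr6:152168313-152168562 precedes that of 2 protein-coding transcripts of 3768 and 3154 bp. Capitals mark the core letters of the hypoxia response element, ACGTG or GCGTG on either strand.
SYNE1 start of the giant transcripts: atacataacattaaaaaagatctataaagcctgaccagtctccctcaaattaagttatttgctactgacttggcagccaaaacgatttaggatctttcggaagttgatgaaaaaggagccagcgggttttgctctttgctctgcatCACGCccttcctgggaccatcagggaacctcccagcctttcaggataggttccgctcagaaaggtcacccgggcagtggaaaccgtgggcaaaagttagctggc
SYNE1 start of the short transcripts: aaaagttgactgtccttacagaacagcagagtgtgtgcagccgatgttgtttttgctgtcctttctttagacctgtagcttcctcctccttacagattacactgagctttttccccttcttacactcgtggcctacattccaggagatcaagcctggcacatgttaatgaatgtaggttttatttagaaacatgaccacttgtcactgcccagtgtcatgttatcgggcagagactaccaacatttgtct
The first window held 1 match and the last window 0, with GC contents of 47.6% and 44.0%. Of 35116 RefSeq promoter windows of the same length, 43.2% held at least 1 match. The counts do not show which start was used. Of the 9 genes, 7 had windows in the table, and SPAG4 and SUN1 are named only.

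SPAG4 was several times higher in both groups that received lactate. It stood at 23.0, 28.2, 22.3 and 27.9 CPM in replicates 1 to 4 with lactate and I-BET762, and at 43.6, 29.2, 23.9 and 29.7 CPM with lactate alone. With I-BET762 alone it stood at 6.4, 7.8, 7.5 and 6.1 CPM, and in control at 5.1, 5.6, 4.7 and 5.9 CPM. Every library given lactate lay above every library without it. The largest value, in lactate replicate 1, belonged to one of the 2 lactate libraries with a negative trend on exon length.

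Both treatments against I-BET762 alone compared 8 libraries outside the lactate and control libraries whose difference selected SPAG4 and SYNE1. The spread between replicates was still estimated over all 16, and the members were chosen with earlier results of these data known. This comparison is therefore not a fully separate check of them. SPAG4 rose 3.63-fold there, averaging 25.3 ± 3.15 CPM with both treatments and 6.98 ± 0.85 CPM with I-BET762 (SD, n = 4 each), at a log2 fold change of 1.86 (SE 0.17, edgeR adjusted p = 1.61e-05). In the fit of these 8 libraries alone it stood at 1.86 (edgeR adjusted p = 2.13e-05). Of all genes tested in this comparison 4.9% were called at an adjusted p under 0.05, 3.34% higher and 1.57% lower. Without the pair labelled I-BET762 replicate 2 and control replicate 2 the log2 fold change was 1.92 (edgeR adjusted p = 0.000241). SPAG4 has a GC content of 61.4% in its longest transcript, and GC content was followed differently by the groups. Expression was again taken relative to each gene's mean over the 16 libraries. Across genes, its rho on GC content ran between 0.06 and 0.43 with both treatments, -0.02 and 0.32 with lactate, -0.18 and 0.17 with I-BET762, and -0.55 and -0.30 in control. With GC content and exon length corrected for, which called 7.8% of all genes, SPAG4 stood at 1.67 (SE 0.15, edgeR adjusted p = 1.03e-05).

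The difference that selected SPAG4 was larger. Lactate against control gave a log2 fold change of 2.56 (SE 0.18), or 5.89-fold, with 31.6 ± 8.43 CPM in lactate and 5.34 ± 0.51 CPM in control libraries (SD, n = 4 each). It was 2.0 with the same correction, and 2.32 without lactate replicates 1 and 4. Both treatments against control gave 2.24 (SE 0.18), which is a description as well, since the control libraries served in the selection.

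The inhibitor comparisons also hold lactate or control libraries that served in the selection, and their SPAG4 values are given without a test. With both treatments against lactate the log2 fold change was -0.31 (SE 0.16), and -0.07 without lactate replicates 1 and 4. I-BET762 alone against control gave 0.38 (SE 0.18), and all 4 I-BET762 libraries lay above all 4 control libraries. Only 0.442% of all genes were called between I-BET762 and control, all of them higher (0.442%, and 0% lower). The interaction asks whether the lactate difference changed in the presence of the inhibitor. It was -0.70 for SPAG4 (SE 0.24). The edgeR test called 0% of all genes for the interaction (0 with DESeq2), and 894 genes had an unadjusted p under 0.05.

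SYNE1 ran the opposite way and was lower in the groups given lactate. It stood at 38.8, 40.3, 42.4 and 34.1 CPM with lactate and I-BET762, and at 22.9, 66.9, 38.0 and 23.1 CPM with lactate alone. Without lactate it stood at 69.6, 86.0, 72.3 and 89.3 CPM with I-BET762, and at 93.5, 86.4, 103.8 and 74.0 CPM in control. Every library given lactate was again on one side of every library without it, though lactate replicate 2 reached 66.9 CPM and the lowest I-BET762 library 69.6 CPM. The lactate libraries were the most spread, and the 4 libraries given both treatments lay close together.

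**Figure D1:**
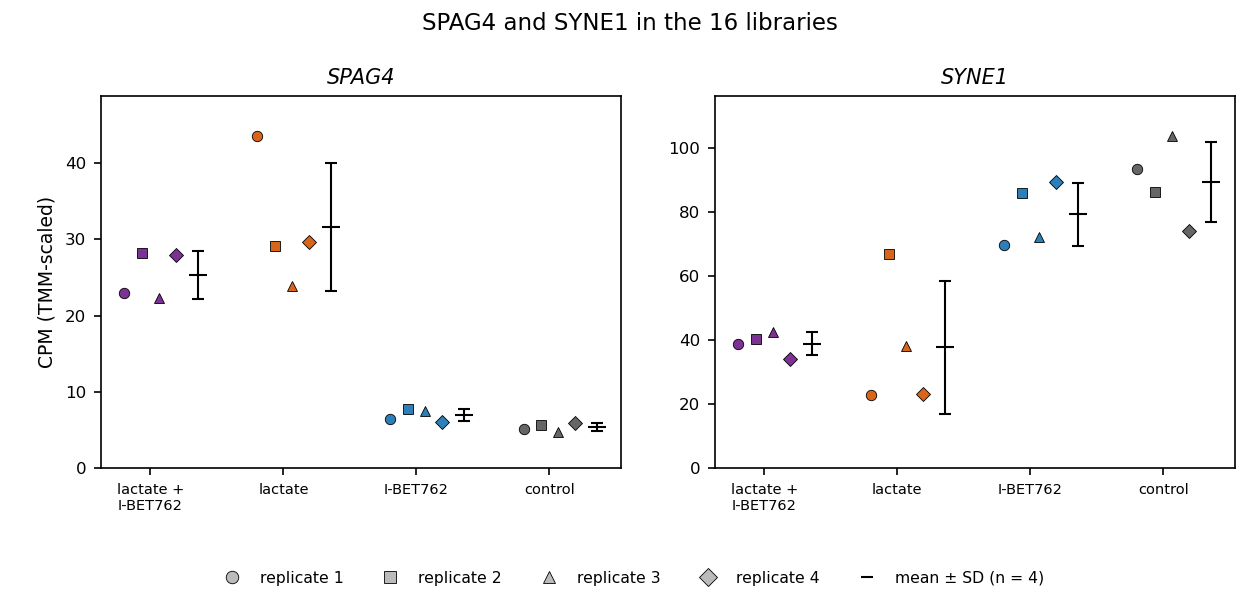
CPM on TMM-scaled library sizes of SPAG4 (left) and SYNE1 (right), 1 point per library with the shape giving the replicate number, and bars giving mean ± SD of 4 libraries. SPAG4 lies between 22.3 and 43.6 CPM in the 8 libraries given lactate and between 4.7 and 7.8 CPM in the other 8, while SYNE1 lies below 67 CPM with lactate and above 69 CPM without.

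SYNE1 fell to 0.49 of its I-BET762 level when lactate was added to the inhibitor. It averaged 38.9 ± 3.52 CPM with both treatments and 79.3 ± 9.79 CPM with I-BET762 (SD, n = 4 each), at a log2 fold change of -1.03 (SE 0.25, edgeR adjusted p = 0.0247). Without that doubted pair the value was -0.99 and the call was lost (edgeR adjusted p = 0.0766). The call was also lost on leaving out any 1 library given both treatments, or I-BET762 replicate 2, 3 or 4, with edgeR adjusted p between 0.0508 and 0.0936 and log2 fold changes between -1.07 and -0.97. In the fit of these 8 libraries alone the value was -1.03 with an edgeR adjusted p of 0.000106, and under the GC content and exon length correction it was -1.0 with an edgeR adjusted p of 0.0013.

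Lactate against control gave SYNE1 a log2 fold change of -1.24 (SE 0.25), with 37.7 ± 20.7 CPM in lactate and 89.4 ± 12.5 CPM in control libraries (SD, n = 4 each). Lactate replicates 1 and 4, the libraries with rho of -0.40 and -0.42 on exon length, held 22.9 and 23.1 CPM of this gene, and without them the value was -0.77. It was -1.10 under the correction. The remaining SYNE1 values share lactate or control libraries with the selection and are likewise given without a test. Both treatments against control gave -1.20 (SE 0.25). Both treatments against lactate gave 0.04 (SE 0.25), or -0.43 without lactate replicates 1 and 4. I-BET762 against control gave -0.17 (SE 0.25), or 0.05 under the correction. The interaction was 0.21, or -0.27 without lactate replicates 1 and 4.

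The trend on exon length was set beside the 2 longest genes of the set, SYNE1 and SYNE2. SYNE2 encodes nesprin-2, the other giant nesprin, from exons covering 31374 bp. The rho of the 4 libraries given both treatments ran from -0.13 to 0.08 and that of the 4 I-BET762 libraries from -0.04 to 0.16. SYNE1 held 34.1 to 42.4 CPM with both treatments and 69.6 to 89.3 CPM with I-BET762. SYNE2 held 57.6 to 76.4 CPM with both treatments and 64.0 to 94.2 CPM with I-BET762. The part of the length trend in the SYNE1 difference was not tested.

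**Figure D2:**
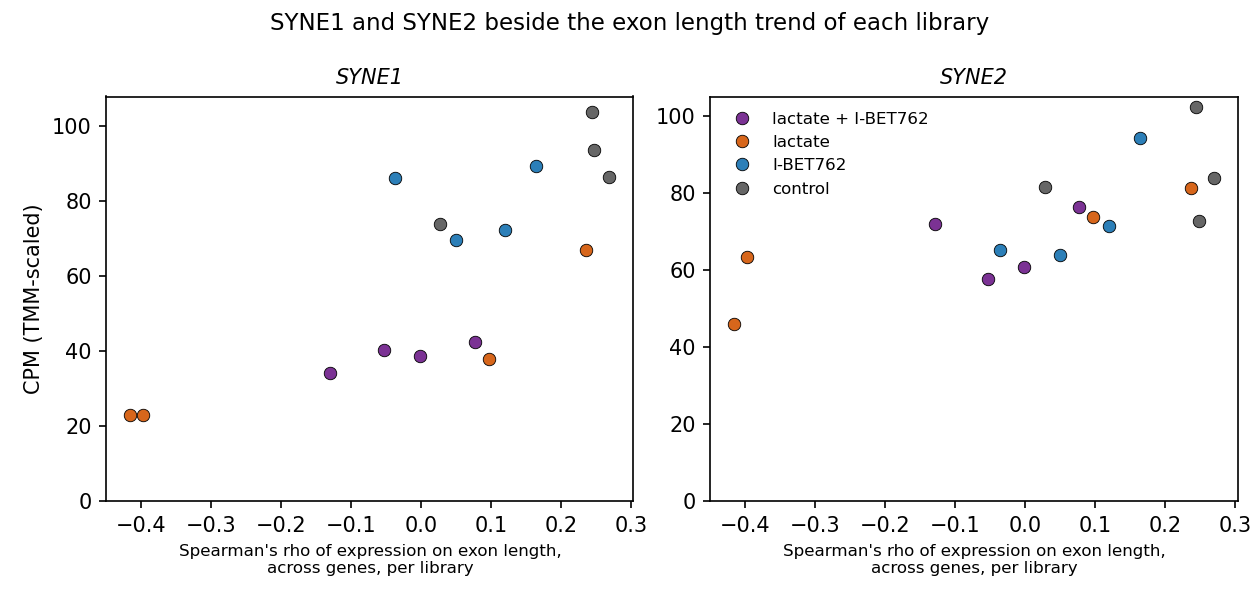
CPM of SYNE1 (left) and SYNE2 (right) against the rank correlation of expression with exon length across genes (Spearman's rho), 1 point per library coloured by group. For rho, expression was taken relative to each gene's mean over the 16 libraries. Lactate replicates 1 and 4 lie at the far left with 22.9 and 23.1 CPM of SYNE1. The libraries given both treatments lie between rho of -0.13 and 0.08, and those given I-BET762 between -0.04 and 0.16.

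SYNE2 and SYNE3 did not pass the test in any comparison of all 16 libraries. SYNE2 stood at 60.8, 57.6, 76.4 and 72.0 CPM with both treatments, 63.3, 81.3, 73.7 and 46.1 CPM with lactate, 64.0, 65.2, 71.5 and 94.2 CPM with I-BET762, and 72.7, 83.8, 102.2 and 81.6 CPM in control. All 4 groups overlapped, and lactate replicate 4 was lowest. Its log2 fold change was -0.15 for both treatments against I-BET762 (SE 0.17, edgeR adjusted p = 0.703) and -0.36 for lactate against control (SE 0.17, edgeR adjusted p = 0.123). Both treatments against control gave -0.35 (edgeR adjusted p = 0.156), or an edgeR adjusted p of 0.0481 without lactate replicates 1 and 4. SYNE3 encodes nesprin-3, which binds the intermediate filament linker plectin. It was low throughout, at 5.4 to 6.9 CPM with both treatments, 5.4 to 8.7 CPM with lactate, 6.3 to 7.6 CPM with I-BET762 and 6.6 to 9.1 CPM in control. Lactate against control gave -0.23 (edgeR adjusted p = 0.292).

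SUN1 and SUN2 are the widely expressed SUN-domain proteins and the usual partners of nesprin-1 and nesprin-2. SUN1 stood at 168.9, 179.7, 162.4 and 162.8 CPM with both treatments, 94.0, 166.4, 158.5 and 134.4 CPM with lactate, 164.3, 157.3, 171.5 and 167.3 CPM with I-BET762, and 154.4, 163.8, 156.9 and 152.8 CPM in control. Apart from lactate replicates 1 and 4, all libraries lay within 152.8 to 179.7 CPM. SUN1 did not pass the test in any comparison, with -0.18 for lactate against control (SE 0.13, edgeR adjusted p = 0.312), or 0.05 without those 2 libraries. Annotated exons of GET4 on the same strand cover 15.6% of its exon length, so its counts are uncertain.

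SUN2 averaged lowest in control. It stood at 100.2, 103.0, 93.7 and 116.9 CPM with both treatments, 58.0, 88.5, 100.9 and 94.7 CPM with lactate, 95.6, 87.1, 95.6 and 89.1 CPM with I-BET762, and 61.3, 71.4, 53.9 and 80.5 CPM in control. The control libraries lay below all libraries given I-BET762 with or without lactate. SUN2 rose 1.55-fold with both treatments against control (log2 fold change 0.63, SE 0.15, edgeR adjusted p = 0.0082), where 20.7% of all genes were called, 13% higher and 7.72% lower. Without the doubted pair it stood at 0.66 (edgeR adjusted p = 0.0165). Under the GC content and exon length correction, with 13.6% called, it stood at 0.18 (edgeR adjusted p = 0.213). The gene has a GC content of 60.8% in its longest transcript, and GTPBP1 exons on the opposite strand cover 10.5% of its exon length. I-BET762 alone gave 0.46 (SE 0.15, edgeR adjusted p = 0.164) and lactate alone 0.36 (SE 0.15, edgeR adjusted p = 0.0912), or 0.51 (edgeR adjusted p = 0.0118) without lactate replicates 1 and 4.

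LMNA, which encodes lamins A and C, was highest with I-BET762 alone. It stood at 503.6, 532.5, 416.6 and 539.6 CPM with both treatments, 410.5, 487.8, 537.1 and 499.9 CPM with lactate, 673.8, 681.2, 598.3 and 540.8 CPM with I-BET762, and 402.6, 400.8, 310.6 and 494.8 CPM in control. The I-BET762 libraries lay above all 12 others, by little at 540.8 against 539.6 CPM. I-BET762 against control gave a log2 fold change of 0.63 (SE 0.14), or 1.55-fold, at an edgeR adjusted p of 0.0518, just above the threshold, and at 0.59 (edgeR adjusted p = 0.105) without the doubted pair. LMNA passed in 6 of the alternative fits that kept all libraries or left out 2, among them DESeq2 (adjusted p = 0.00183), and stood at 0.30 (edgeR adjusted p = 0.413) under the GC content and exon length correction. Both treatments against I-BET762 gave -0.32 (SE 0.14, edgeR adjusted p = 0.193), and -0.48 (edgeR adjusted p = 0.00516) after that correction. The interaction of LMNA was -0.59 (SE 0.19), with an unadjusted p of 0.00721 and an edgeR adjusted p of 0.70.

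LMNB1 encodes lamin B1, a farnesylated lamin that stays at the inner membrane. It stood at 80.4, 69.3, 102.0 and 92.1 CPM with both treatments, 58.1, 95.7, 105.4 and 106.1 CPM with lactate, 96.7, 95.2, 87.2 and 86.4 CPM with I-BET762, and 114.9, 111.2, 106.3 and 100.1 CPM in control. The I-BET762 libraries lay below the control libraries, at a log2 fold change of -0.24 (SE 0.16, edgeR adjusted p = 0.654), or -0.25 (edgeR adjusted p = 0.655) without the doubted pair. It did not pass the test in any comparison, but passed without lactate replicates 1 and 4 for both treatments against control (log2 fold change -0.33, edgeR adjusted p = 0.0156).

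EMD encodes emerin, an inner membrane protein that binds lamins. It stood at 51.6, 57.0, 52.3 and 52.5 CPM with both treatments, 37.1, 48.0, 50.6 and 55.4 CPM with lactate, 51.6, 45.6, 45.6 and 42.0 CPM with I-BET762, and 42.7, 43.4, 39.3 and 45.0 CPM in control. Libraries given both treatments lay above those of control, with a log2 fold change of 0.33 (SE 0.11, edgeR adjusted p = 0.0526) that did not pass, nor without the doubted pair (0.33, edgeR adjusted p = 0.0886). It stood at -0.10 (edgeR adjusted p = 0.634) under the GC content and exon length correction, and at 0.33 (edgeR adjusted p = 0.00438) without lactate replicates 1 and 4.

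**Figure D3:**
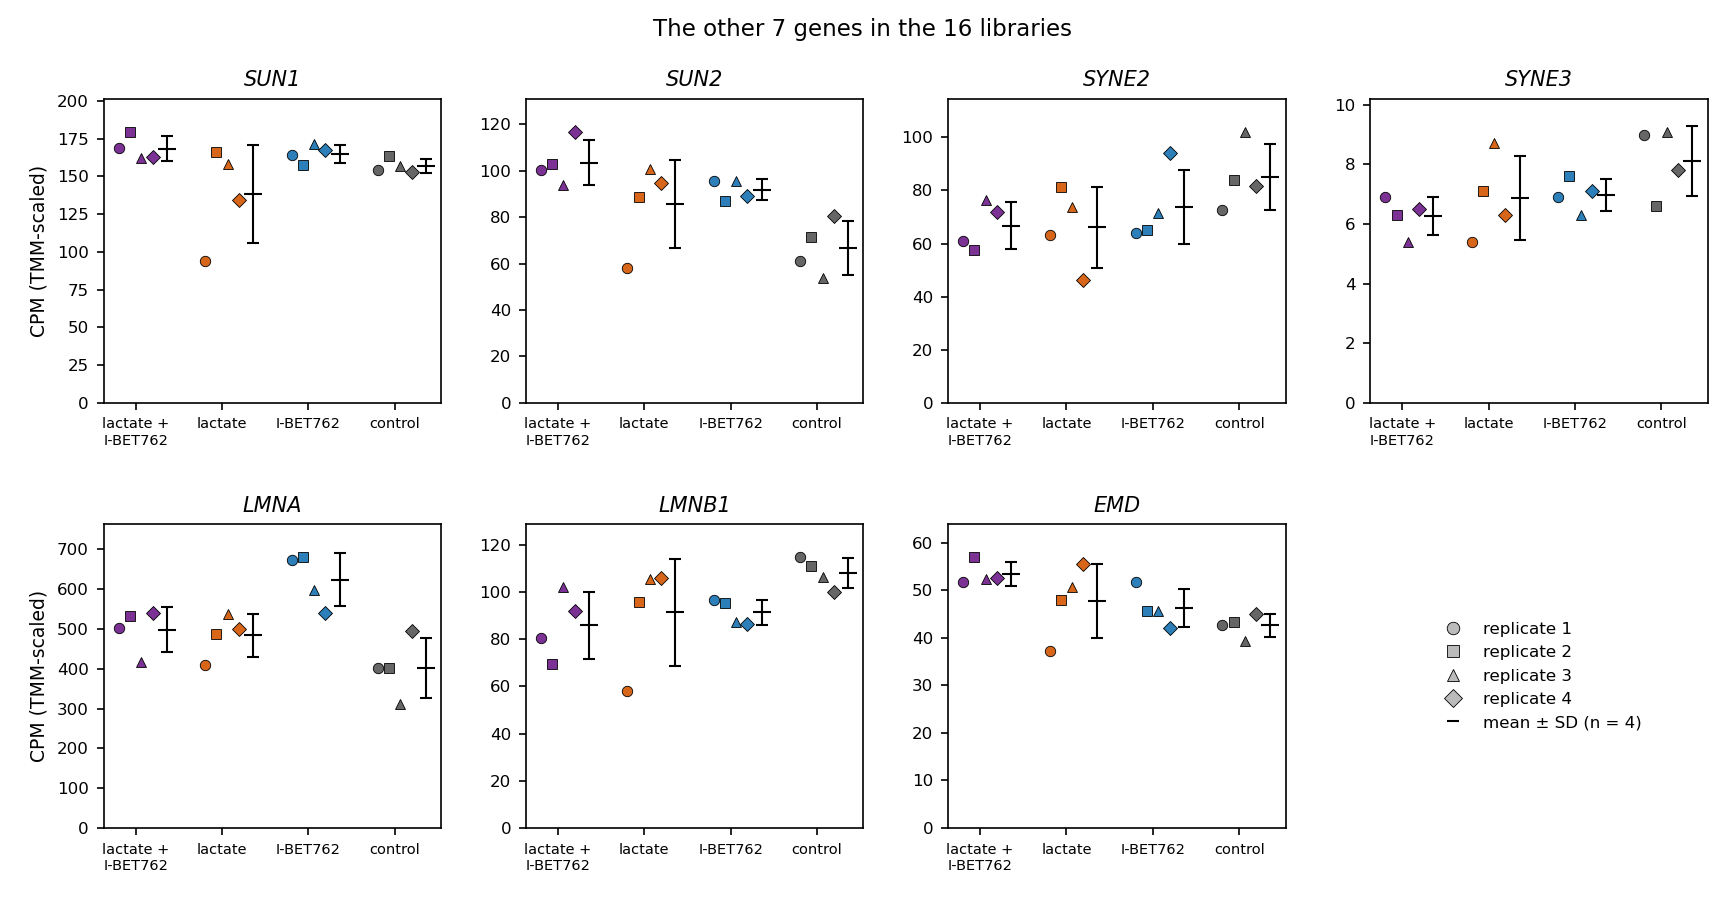
CPM on TMM-scaled library sizes of SUN1, SUN2, SYNE2, SYNE3, LMNA, LMNB1 and EMD, 1 point per library with the shape giving the replicate number, and bars giving mean ± SD of 4 libraries. LMNA reaches 540.8 to 681.2 CPM in the I-BET762 libraries, SUN2 is lowest in control apart from 58.0 CPM in lactate replicate 1, and that lactate library is the lowest of all 16 for SUN1 and LMNB1.

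Counted over comparisons, SPAG4 and SYNE1 were the members called for both treatments against I-BET762, where 4.9% of all genes were called. Both had been selected for a lactate difference, so that share is no measure for them. The SYNE1 call was lost without the doubted pair (edgeR adjusted p = 0.0766). Of the 7 other members 1, SUN2, was called for both treatments against control, where 20.7% of all genes were called, and that call was lost under the correction (0.18, edgeR adjusted p = 0.213). Of the 7 other members 0 were called for lactate against control, where 23.7% of all genes were called (13.6% higher, 10.1% lower). None of these 7 was called for both treatments against lactate, where the edgeR test called 0% of all genes, DESeq2 called 103 genes and 2294 genes had an unadjusted p under 0.05. None of them was called for I-BET762 against control, where 0.442% of all genes were called. The comparisons against control share the control libraries, and their values are therefore not separate observations.

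**Figure D4:**
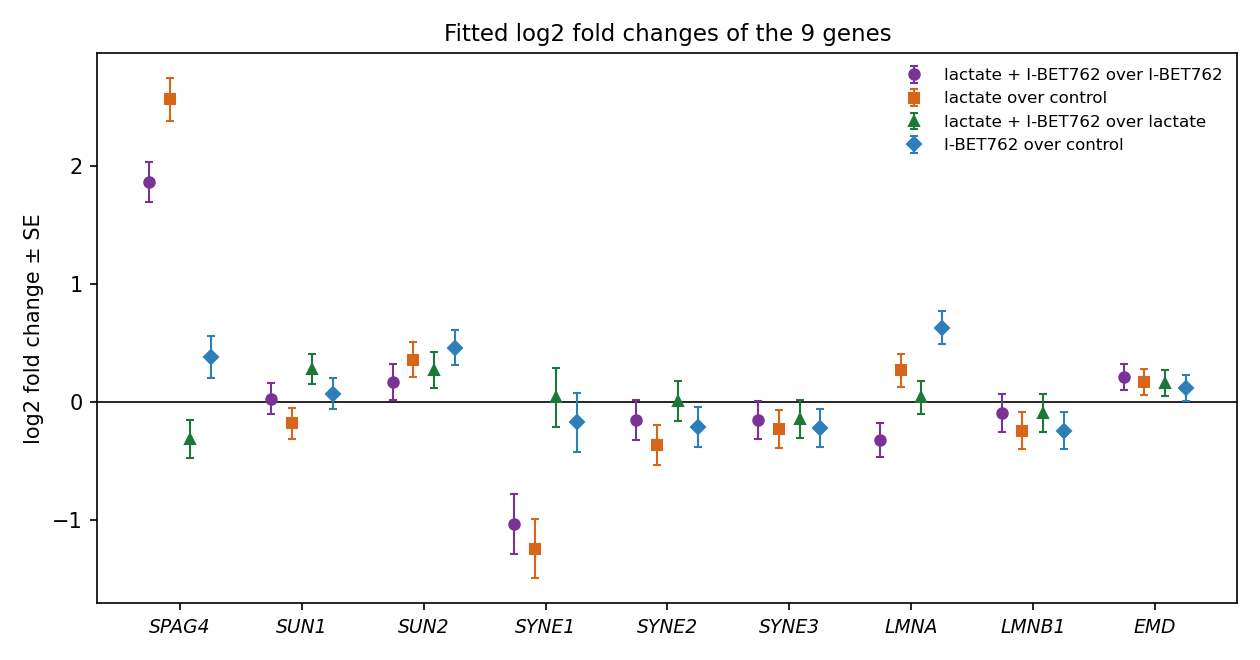
Fitted log2 fold changes of the 9 genes with their standard errors, in 4 comparisons. SPAG4 stands at 1.86 and 2.56 and SYNE1 at -1.03 and -1.24 in the comparisons that add lactate, and the other 7 genes lie between -0.36 and 0.63 in all 4.

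Levels per kb of annotated exon, in CPM, put LMNA first and SYNE3 last in every group. LMNA led at 71.3 ± 8.09 with both treatments, 69.3 ± 7.62 with lactate, 89.3 ± 9.54 with I-BET762 and 57.6 ± 10.8 in control (SD, n = 4 each). SYNE3 was last at 0.344 ± 0.035 with both treatments, 0.378 ± 0.076 with lactate, 0.383 ± 0.029 with I-BET762 and 0.446 ± 0.064 in control. LMNB1 and EMD came next to LMNA, and their libraries overlapped in all groups except control, where LMNB1 was higher at 29.8 ± 1.75 against 21.1 ± 1.17.

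The place of SPAG4 in that order differed between the groups. Its level per kb was 11.3 ± 1.40 with both treatments, just under SUN1 at 14.3 ± 0.69, and 14.1 ± 3.76 with lactate, where its libraries overlapped those of EMD and SUN2. With I-BET762 it was 3.12 ± 0.38 and in control 2.39 ± 0.23, overlapping SYNE2 in both groups. SYNE1 stood at 0.844 ± 0.076 with both treatments, 0.819 ± 0.449 with lactate, 1.72 ± 0.21 with I-BET762 and 1.94 ± 0.27 in control, always below SYNE2. Its libraries overlapped those of SPAG4 in control. The scale divides by all annotated exons, which is more than the length of any one transcript.

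Beyond the 9 genes, the nuclear envelope list held 32 others, of which 30 were tested. SUN5 had 0 counts in every library and IRAG2 at most 1, so neither was tested. Between both treatments and I-BET762, 0 of the 30 were called, beside 4.9% of all genes. Their median log2 fold change was -0.06, against 0.005 over all genes. The prelamin protease ZMPSTE24 came nearest among those named here, at -0.31 (edgeR adjusted p = 0.0563).

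For lactate against control 8 of these 30 genes were called, 3 higher and 5 lower, at a share near the 23.7% of all genes, and the median was -0.09. The nesprin-4 gene SYNE4 stood at 1.53 (SE 0.38, edgeR adjusted p = 0.00985) on 10 to 27 counts in lactate libraries and 4 to 9 in control. The meiotic KASH-domain gene KASH5 stood at 1.04 (SE 0.34, edgeR adjusted p = 0.0368) on 10 to 16 counts in lactate libraries and 4 to 10 in control, a call lost without control replicate 1, 2 or 3 or lactate replicate 4 (edgeR adjusted p up to 0.12). The prenyl protein protease RCE1 stood at 0.48 (edgeR adjusted p = 0.00754), and on the other side of 0 at -0.13 (edgeR adjusted p = 0.364) under the GC content and exon length correction. ZMPSTE24 fell by 0.47 (edgeR adjusted p = 0.00245). The torsin gene TOR1B and the torsin activators TOR1AIP1 and TOR1AIP2 fell by 0.43, 0.34 and 0.38, with edgeR adjusted p of 0.0473, 0.0414 and 0.0123. The SUN-domain ossification factor SUCO fell by 0.34 (edgeR adjusted p = 0.0349), a call lost without control replicate 1, 2 or 3 or lactate replicate 1 or 4 (edgeR adjusted p up to 0.107). Without the doubted pair 4 of the 30 were called, with 17.3% of all genes called. Under the correction 3 of the 30 were called, SYNE4, ZMPSTE24 and the dynein heavy chain gene DYNC1H1, with 15.8% of all genes called. The remaining SUN-domain gene, SUN3, averaged under 1 CPM in every group and did not pass the test.

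With both treatments against control 5 of the 30 were called, beside 20.7% of all genes. RCE1 and the kinesin light chain KLC1 stood at 0.46 and 0.37 (edgeR adjusted p of 0.009 and 0.0385). ZMPSTE24, the inner membrane protein TMEM43 and the lamina-associated polypeptide gene TMPO stood at -0.39, -0.38 and -0.28 (edgeR adjusted p of 0.00663, 0.0127 and 0.0237). Under the correction 1 of the 30 was called, TMEM43, with 13.6% of all genes called. RCE1 then stood at -0.18, KLC1 at 0.19, ZMPSTE24 at -0.26 and TMPO at -0.12 (edgeR adjusted p of 0.236, 0.541, 0.139 and 0.446). I-BET762 against control and both treatments against lactate called 0 of the 30, beside 0.442% and 0% of all genes.

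Nuclear pore genes were a separate list of 30, all of them tested. In lactate against control 12 fell and 0 rose, with a median log2 fold change of -0.32 against 0.03 over all genes, where 10.1% of all genes were lower. The spread of the lactate libraries differed between genes that fell. NUP107 ran from 81.4 to 85.4 CPM and NUP188 from 50.1 to 191 CPM, named after their values were seen. Counts of pore genes without lactate replicates 1 and 4 are not given here. With the correction 6 pore genes were lower, beside 8.09% of all genes, and without the doubted pair 4, beside 993 of 14897 genes lower. Both treatments against control called 5, all lower, beside 7.72% of all genes. With the correction 1 of them, NUP43, was called, beside 6.72% of all genes lower, and without the doubted pair 2, beside 1175 of 14897 genes lower. The 5 were NUP37, NUP43, NUP107, NUP155 and NDC1, named after their values were seen. For both treatments against I-BET762 the scaffold nucleoporin gene NUP43 was called, at -0.41 (SE 0.10, edgeR adjusted p = 0.0247), 1 of the 30 beside 1.57% of all genes lower. Without the doubted pair 0 were called, beside 142 of 14897 genes lower.

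**Figure D5:**
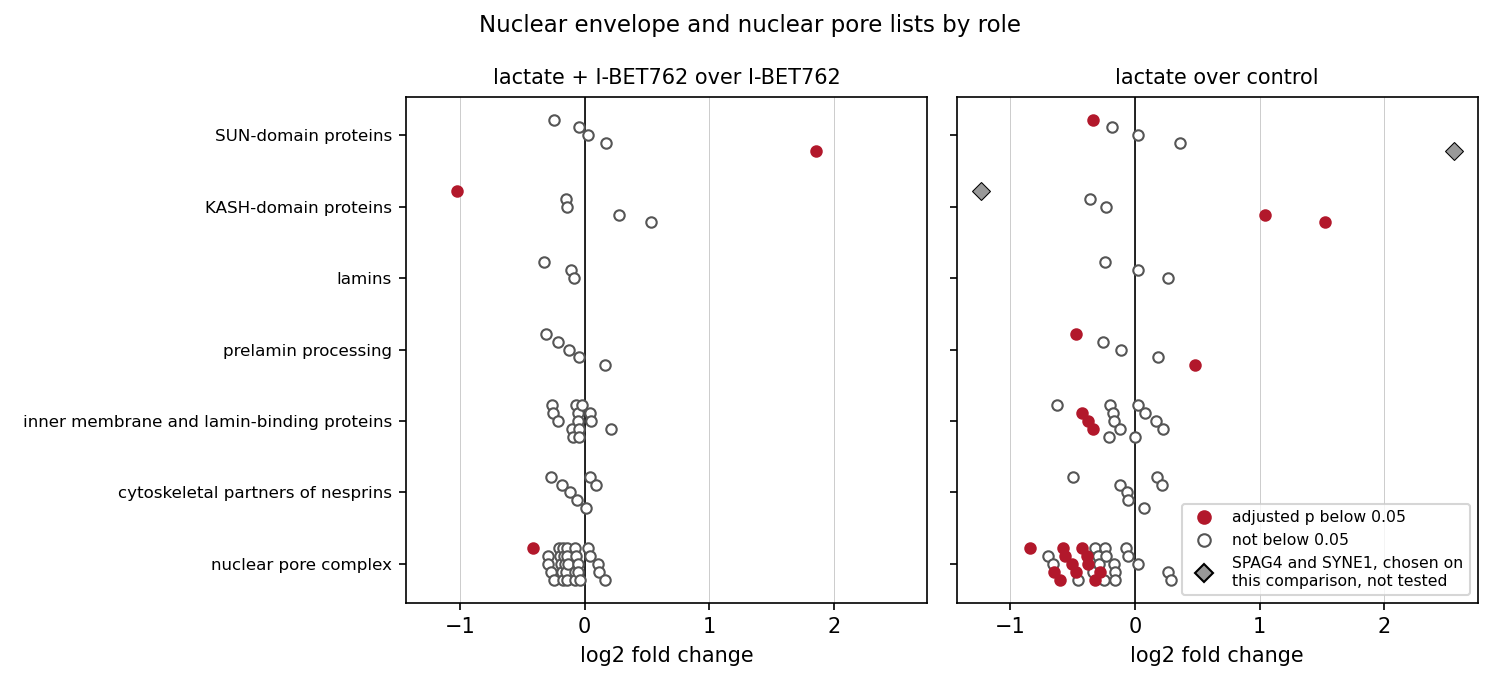
Fitted log2 fold changes of the tested genes of the nuclear envelope list by role, with the nuclear pore list at the bottom, for both treatments against I-BET762 (left) and lactate against control (right). Filled circles passed an edgeR adjusted p of 0.05, and SPAG4 at 1.86 and SYNE1 at -1.03 lie outside the other envelope genes on the left, while the grey diamonds on the right mark the values these 2 genes were selected on.

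Hypoxia genes were set beside SPAG4 because it has been described as one. Of 10 listed genes 9 were tested. For both treatments against I-BET762, 6 of the 9 were higher and 0 lower, beside 3.34% of all genes higher and 1.57% lower. The median log2 fold change was 1.09 and the range 0.01 to 1.60. Those that did not pass were ANKRD37, VEGFA and ADM, named after their values were seen, at 1.00, 0.13 and 0.01 (edgeR adjusted p of 0.0628, 0.75 and 0.992). The glycolytic regulator PFKFB4, the mitophagy receptor BNIP3 and the collagen hydroxylase P4HA1 stood at 1.58, 1.55 and 1.10 (edgeR adjusted p of 4.47e-06, 4.89e-06 and 3.56e-05). I-BET762 against control called 0 of the 9, beside 0.442% of all genes, with a median of -0.04.

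Over the 16 libraries and 10671 genes that averaged 5 CPM or more, the genes whose log2 CPM followed SPAG4 most closely were SNX21, HSD17B14, TSKU, NUDT18 and TRPT1, with Pearson's r of 0.987, 0.977, 0.975, 0.967 and 0.966. SNX21, the closest, averaged 56.6 ± 4.9 CPM with both treatments, 61.8 ± 7.9 CPM with lactate, 31.1 ± 3.5 CPM with I-BET762 and 25.9 ± 2.2 CPM in control (SD, n = 4 each). Those closest to SYNE1 were TNPO1, RMND5A, SLC39A14, PPP4R3B and FBXO30, with r of 0.971, 0.97, 0.969, 0.967 and 0.965. TNPO1, a nuclear import receptor, averaged 362.9 ± 38.1 CPM with both treatments, 323.1 ± 74.0 CPM with lactate, 513.1 ± 17.9 CPM with I-BET762 and 547.5 ± 41.3 CPM in control (SD, n = 4 each). The libraries fall into those with and without lactate, and each r was taken over both kinds. The 5 genes near SYNE1 have exon lengths of 6804 to 11977 bp. Among the members, SYNE2 ranked 1739 of the 10671 genes for likeness to SYNE1, with r of 0.695.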

How the data were processed

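Raw counts of reads per Ensembl gene were deposited by the authors, 1 column per library. Per the labels' protocols, 800 ng of RNA was used per library, with polyA selection, a strand-marking kit and single reads of 75 bp. The tools included DESeq and STAR 2.6.1c, per the submitters' processing notes, which name builds GRCh38.p12 and hg38. The counter, its strand setting and the annotation were not given in the sources consulted, so overlapping genes are uncertain. Positions, exon lengths and GC contents are from GENCODE release 29.

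Counts were filtered by filterByExpr (minimum count 10, minimum total 15) and scaled by TMM. The 4 group means were fitted over all 16 libraries with the quasi-likelihood test of edgeR 4.0.16 (R 4.3.3, 12 residual degrees of freedom). A gene was called at a two-sided Benjamini-Hochberg adjusted p under 0.05 over all 14690 genes. CPM values are on TMM-scaled library sizes. The correction took per-library splines (5 degrees of freedom) as offsets on exon length and GC content, which 99.37% of tested genes had.

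Alternatives were RLE, total counts, no filter, a replicate block, DESeq2 1.42.0, the correction, the compared groups alone, and leaving out libraries. The alternative without lactate replicates 1 and 4 was chosen after seeing the data. The members and the 13 lists were chosen with earlier results of these data known. Named were all members, up to 4 genes per envelope list and comparison past the threshold with the smallest p, SUN and KASH genes, 5 genes most like SPAG4 and SYNE1, and up to 3 hypoxia genes. The p-values measure the spread between these cultures of 1 line.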

Additional observations from a re-analysis of the deposited data

Results flagged for a closer look

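Among 36 sets of 4 libraries, 1 for each of the 9 genes in each group, EMD with both treatments had a library set apart from the others. Replicate 2 stood at 57.0 CPM, against 51.6, 52.3 and 52.5 CPM in replicates 1, 3 and 4, and the gap took 0.834 of the range above Dixon's 95% critical value for 4 values. Chance sets apart about 1 in 20 such sets.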

How the results depend on the processing

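Of 1341 recomputed fold changes of the 9 genes, 1300 stayed on their side of the threshold, 9 lost a call, 31 gained one and 1 moved without a test. None of the called values changed sign, but 27 values that were not called did, 8 of them under the GC content and exon length correction and 9 without lactate replicates 1 and 4. Under the correction LMNA and EMD with both treatments against control stood at -0.18 and -0.10, against 0.31 and 0.33 before, and EMD in lactate against control at -0.32, against 0.17. SPAG4 with both treatments against I-BET762 passed in every alternative, from 1.80 to 1.92 on leaving out 1 library. SYNE1 there stood at -0.99 without the doubted pair (the libraries labelled I-BET762 replicate 2 and control replicate 2). Its call was then lost (edgeR adjusted p = 0.0766). On leaving out 1 library SYNE1 ran from -1.09 to -0.97, with the call lost in 7 of these fits.

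Numbers of called genes moved more, and the cause was not tested. The envelope list was counted with its 9 members, which include the SPAG4 and SYNE1 differences used in the selection. Brackets give the share of its tested genes called beside the share of all genes. Lactate against control called 10 (25.6% beside 23.7%). It called 5 after correction (12.8% beside 15.8%) and 3 with the compared groups alone (7.89% beside 6.33%). Without the doubted pair it called 6 (15.4% beside 17.3%), and without 1 library 6 to 15. I-BET762 against control called 0, beside 0.442% of all genes. It called 1 with RLE (2.56% beside 0.511%), 2 with no filter (5.0% beside 1.58%) and 1 with a replicate block (2.56% beside 1.4%). It called 2 with DESeq2 (5.13% beside 3.69%), 3 with the groups alone (8.11% beside 3.55%) and 0 to 3 without 1 library. Without lactate replicates 1 and 4 it called 4 (10.3% beside 5.4%). Both treatments against I-BET762 called 2, but 4 after correction, 6 alone, 1 without the doubted pair, and 1 to 3 without 1 library. Both treatments against control called 8 (20.5% beside 20.7%), among them SPAG4 and SYNE1, there descriptions without a test. After correction it called 3 (7.69% beside 13.6%), these 2 among them. With the groups alone it called 16 (42.1% beside 33.5%). Without lactate replicates 1 and 4 it called 17 (43.6% beside 35.8%), and without 1 library 5 to 14.

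Over all genes, lactate against control called 3486, but 2319 after correction, 889 alone, and 1839 to 4950 without 1 library. I-BET762 against control called 65, but 0 with total counts or after correction, 492 with no filter, 206 with the block, 542 with DESeq2, 496 alone, 10 without the doubted pair, 815 without lactate replicates 1 and 4, and 0 to 516 without 1 library. Both against I-BET762 called 720, but 1250 with DESeq2, 1146 after correction, 2535 alone, 469 without the doubted pair, 2280 without lactate replicates 1 and 4, and 285 to 1672 without 1 library. Both against lactate called 0, but 197 with no filter, 103 with DESeq2, 2 alone and 60 without the doubted pair. Both against control called 3045, but 1998 after correction, 4709 alone, 5402 without lactate replicates 1 and 4, and 1704 to 4639 without 1 library. The interaction called 0, but 3 with no filter, and could not be fitted on compared groups alone.

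With the group mean of each gene subtracted, same-numbered libraries of different groups correlated between -0.26 and 0.42. In 4 of the 6 pairs of groups 3 of the 4 correlations were over 0.1, and in 0 all 4 were, so the numbers were not taken as pairs. As a hint from the data, 24 of 48 correlated best with their own number, where no pairing gives about 12. With the replicate block, SPAG4 and SYNE1 for both treatments against I-BET762 stood at 1.85 and -1.04 (edgeR adjusted p of 0.000103 and 0.0175). LMNA for I-BET762 against control stood at 0.64 (edgeR adjusted p = 0.0423).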
